A study of Ovis aries with 6 samples.

Results

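miR-451, miR-144 and miR-486 are miRNAs known from red blood cells, and their levels were described here library by library in longissimus muscle of sheep. Names were matched after the species prefix was removed, so that miR-451, miR-451a, miR-144, miR-486, miR-486a and miR-486b counted with or without an arm. The rule found 8 names of 10430, on 17 rows of 11161, of which 4 belonged to miR-451, 5 to miR-144 and 8 to miR-486. miR-451b has another name under this rule and was left out, with 3 counts in all. Small RNA had been sequenced on an Ion Proton instrument, in 3 libraries of the breed QHMM (Qianhua Mutton Merino) and 3 of the breed STH (Small Tail Han). Both breeds were kept under natural conditions, with no agent given, and age and sex are not stated. Nothing in the labels ties a library to an animal of its own, so a p-value covers the spread of these 6 libraries, which may be technical.

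miR-451 and miR-144 are made from one shared transcript that the erythroid factor GATA1 switches on. miR-451 is unusual among miRNAs, because its hairpin is cut by the Argonaute protein AGO2 and not by Dicer, so that the mature strand runs from the 5′ arm into the loop and hardly any 3′ strand is made. miR-144 is cut by Dicer and gives a strand from each arm. miR-486 lies in the gene of ankyrin 1, a protein of the red cell membrane that is also made in muscle, and it is known from both red cells and muscle fibres. In whole muscle tissue, blood left in the vessels and RNA of the muscle itself enter the same library, and more cells of one kind cannot be told apart from more RNA per cell.

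The mature strands of miR-451 and miR-144 are shown to let their seeds be compared, 5′ to 3′ as deposited under their rat names, with the seed (positions 2 to 8) in capitals.
miR-451-5p: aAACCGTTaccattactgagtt
miR-451-3p: aTGGTAATggttctcttgctgct
miR-144-5p: gGATATCAtcatatactgtaagt
miR-144-3p: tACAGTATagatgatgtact
The 4 seeds differ. No row of the table outside the 8 names carried the seed of miR-451-5p, miR-451-3p or miR-144-5p, and 1 row with 3 counts carried that of miR-144-3p. The longest run that one arm shared with the reverse complement of the other was 8 nt for miR-451 and 9 nt for miR-144. The runs were sought at any offset and without the hairpin, so they do not give the pairing within it.

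Muscle markers were high in every library. miR-1, listed under the rat name miR-1b, took between 315840 and 419493 CPM (counts scaled to 1000000 over all names of a library, with 1 row for each name), and muscle-specific miR-206-3p took between 28539 and 40746 CPM. The total count was 8062231 to 10276427 in QHMM and 8681817 to 11282332 in STH, and 5572865 to 7930202 over names in all 6. Intervals given for counts and shares cover counting error only.

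miR-451-5p was the only one of the 8 names at a high level, and QHMM replicate 3 stood apart from every other library. It had 18703, 19640 and 82384 CPM in QHMM replicates 1, 2 and 3, against 7083, 13597 and 8336 CPM in STH replicates 1, 2 and 3. The 3 QHMM libraries all lay above the 3 STH libraries, and QHMM replicate 3 lay 6.06-fold above the median of the other 5. With 613174 counts, miR-451-5p was the third most abundant name in QHMM replicate 3, behind miR-1 and miR-133. In STH replicate 1, where it was lowest with 51856 counts, it ranked 27th. Per count of miR-1, the marker of muscle fibres, miR-451-5p stood at 0.242 in QHMM replicate 3 and between 0.0209 and 0.0552 in the other libraries, so that QHMM replicate 3 stood apart on this scale as well. miR-451-5p made up between 97.0% and 98.6% of the counts of the 8 names, and the 8 names together took 8.43% of QHMM replicate 3, 1.90% and 1.99% of the other QHMM libraries and 0.730% to 1.38% of the STH libraries.

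The 3′ strand of miR-451, which this hairpin is known to give hardly at all, was close to absent under its rat sequence. No other row of this strand was listed, and the match of the rat sequence to sheep was not tested. miR-451-3p had 1, 0 and 16 counts in QHMM replicates 1, 2 and 3, against 1, 0 and 2 counts in STH replicates 1, 2 and 3. A count of 0 allows up to 3.69 counts, and the 16 counts of QHMM replicate 3 have an exact Poisson 95% interval of 9.15 to 26.0. Most of the few counts thus came from the library with the most miR-451-5p. Per 1000 counts of miR-451-5p, the 3′ strand stood at 0.0261 in QHMM replicate 3 and between 0 and 0.0303 in the others, and QHMM replicate 3 was not the highest.

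**Figure D1:**
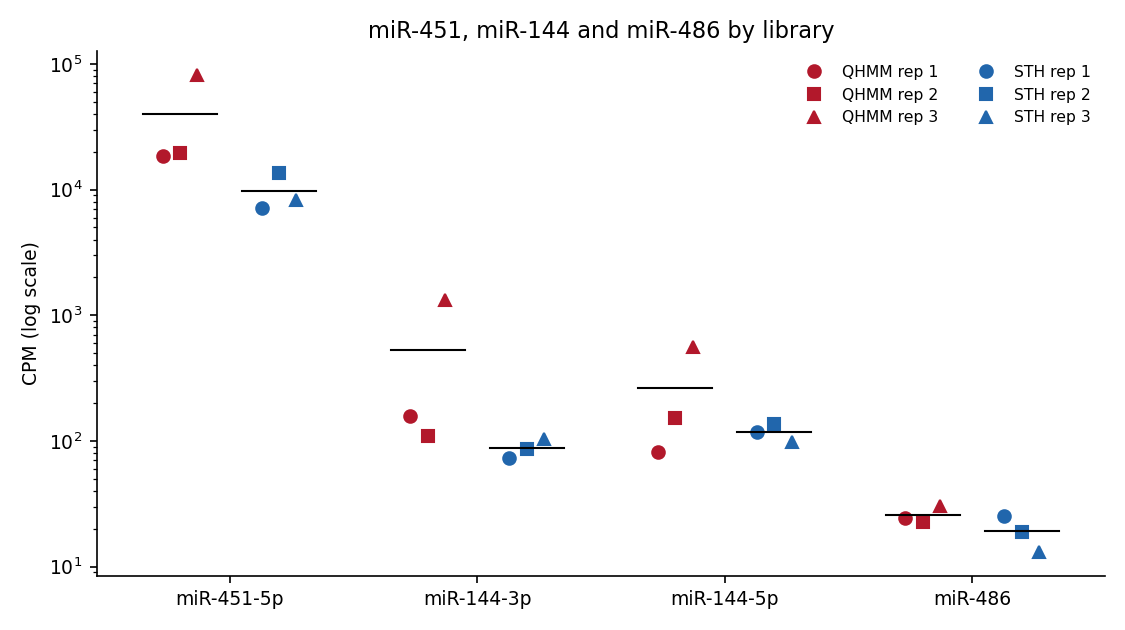
CPM (log scale) of miR-451-5p, miR-144-3p, miR-144-5p and miR-486 in each library, with a point per library and a line at the mean of each breed (n = 3). QHMM replicate 3 lies far above all other libraries for miR-451-5p (82384 CPM) and both arms of miR-144. For miR-486 (30.6 CPM) it is also the highest, at 1.36-fold the median of the other 5.

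Both arms of miR-144, the partner of miR-451 on the same transcript, were counted at far lower levels, and both were highest in QHMM replicate 3. miR-144-3p had 157, 109 and 1329 CPM in QHMM replicates 1, 2 and 3, against 72.8, 86.4 and 104 CPM in STH replicates 1, 2 and 3. For this arm the breeds did not overlap, but QHMM replicate 2 and STH replicate 3 lay close together, with 605 and 828 counts from libraries of different depth. miR-144-5p had 81.9, 151 and 563 CPM in QHMM replicates 1, 2 and 3, against 118, 136 and 97.2 CPM in STH replicates 1, 2 and 3. Here the breeds overlapped, and QHMM replicate 1 was the lowest of all 6 libraries. QHMM replicate 3 lay 12.7-fold above the median of the other 5 libraries for miR-144-3p and 4.76-fold for miR-144-5p, so that the 2 arms of one hairpin moved by different amounts.

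The balance of the miR-144 arms varied among libraries far beyond counting error. miR-144-3p made up 65.8%, 41.8% and 70.3% of both arms in QHMM replicates 1, 2 and 3, against 38.1%, 38.8% and 51.8% in STH replicates 1, 2 and 3. The exact Clopper-Pearson 95% interval was 69.5% to 71.0% in QHMM replicate 3, where the arms had 14077 counts, and 35.6% to 40.7% in STH replicate 1, where they had 1399 counts. The 3′ arm was thus the larger one in QHMM replicates 1 and 3 and the smaller one in QHMM replicate 2 and STH replicates 1 and 2, while the interval of STH replicate 3, 49.3% to 54.3%, included equal shares. The breeds overlapped in this share. QHMM replicate 1 had the second highest share of the 3′ arm, with a miR-451-5p level close to that of QHMM replicate 2.

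Counted per 1000 miR-451-5p counts, the 2 arms of miR-144 together stood at 12.8, 13.2 and 23.0 in QHMM replicates 1, 2 and 3, against 27.0, 16.4 and 24.2 in STH replicates 1, 2 and 3. This ratio spanned 2.11-fold over the 6 libraries, whereas miR-451-5p itself spanned 11.6-fold, and this contrast rests on QHMM replicate 3, in which both miRNAs were highest. Over the other 5 libraries the ratio covered the same range, while miR-451-5p covered only 7083 to 19640 CPM, miR-144-3p 72.8 to 157 CPM and miR-144-5p 81.9 to 151 CPM. The 3′ arm alone stood at 8.42, 5.53 and 16.1 per 1000 in QHMM replicates 1, 2 and 3, against 10.3, 6.35 and 12.5 in STH replicates 1, 2 and 3, so that the breeds overlapped. The 5′ arm alone stood at 4.38, 7.71 and 6.83 per 1000 in QHMM replicates 1, 2 and 3, against 16.7, 10.01 and 11.7 in STH replicates 1, 2 and 3. The breeds did not overlap in this ratio, although they did in the level of miR-144-5p itself, and the counts of miR-451-5p by which it is divided were themselves apart between the breeds in CPM. No test was run on ratios between these names, since they were chosen with results known.

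miR-486 varied less over the 6 libraries than miR-451-5p. The row that stands for it, with 21 nt, had 24.5, 22.6 and 30.6 CPM in QHMM replicates 1, 2 and 3, against 25.4, 19.0 and 13.1 CPM in STH replicates 1, 2 and 3. It ranked 388th by mean level and varied 2.34-fold over the 6 libraries, and the breeds overlapped. QHMM replicate 3 was the highest, but by 1.36-fold over the median of the other 5. Per 1000 miR-451-5p counts, this row stood at 0.372 in QHMM replicate 3 and between 1.15 and 3.59 in the other 5, where the divisor, miR-451-5p, was far higher in QHMM replicate 3 than elsewhere.

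**Figure D2:**
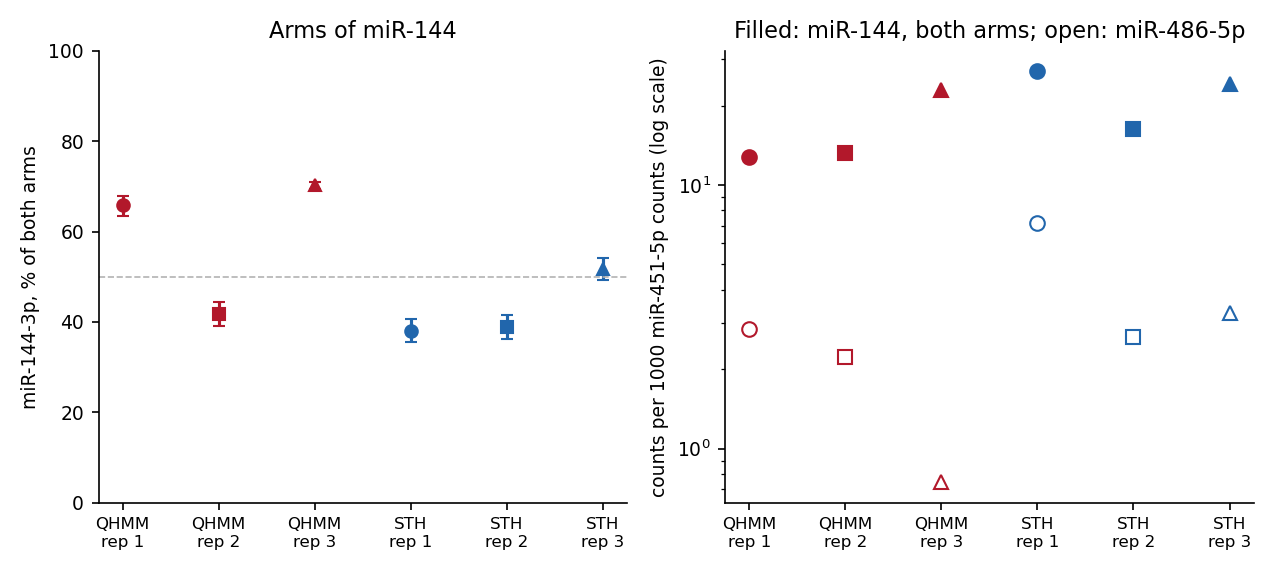
Left, miR-144-3p as a percentage of both miR-144 arms in each library, with exact 95% intervals and a dashed line at equal shares. Right, counts per 1000 miR-451-5p counts (log scale) of both miR-144 arms (filled) and of the 4 rows with the miR-486-5p sequence (open). In QHMM replicate 3 the 3′ arm reached 70.3%, and miR-486-5p per miR-451-5p stood at 0.745 with the divisor at its highest.

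The level of miR-486 depends on which of its rows are counted. Besides the rat, mouse and human entries, 5 rows belong to predicted loci of sheep whose identifiers carry chromosome 26. The mature rows of loci chr26_43919 and chr26_43920 hold the same 21 nt, the 5p sequence, which the rat row extends by a base, and their counts differed only slightly (185, 126 and 228 in QHMM and 186, 117 and 104 in STH for the first and 208, 114 and 221 in QHMM and 180, 103 and 111 in STH for the second). How a read that matches both was counted is not stated. Over the 4 rows with the 5p sequence, the sum was 53.0, 43.6 and 61.4 CPM in QHMM replicates 1, 2 and 3, against 50.7, 36.1 and 27.2 CPM in STH replicates 1, 2 and 3.

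The third predicted locus, chr26_43556, holds the reverse complement of the first. Its star row shares 20 of 21 nt with the reverse complement of the chr26_43919 mature row, and its mature row shares 20 of 21 nt with that of the chr26_43919 star row. The mature rows of the 2 loci differ at 3 bases of 21. The star row of chr26_43556 differs from human miR-486-3p only outside a shared run of 20 nt, and the human row itself had 1 count.

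These rows formed 2 sets by their values in QHMM replicate 3. Each set joins rows that are near reverse complements of each other, so the rows of a set may not be separate observations. Whether the same reads were counted in both was not tested. The chr26_43556 star row had 28.1 CPM in QHMM replicate 3 and 14.5 to 24.1 CPM in the other libraries, so that this library was the highest, as for the 5p rows. The chr26_43556 mature row had 11.7 CPM in QHMM replicate 3 and 13.2 to 22.3 CPM in the others, and the chr26_43919 star row 12.8 CPM and 12.2 to 24.9 CPM. In these rows QHMM replicate 3 was the lowest or the second lowest. The ratio of the first set (5p rows and chr26_43556 star) to the second was 3.66 in QHMM replicate 3 and between 1.42 and 1.97 in the other 5 libraries. These sets were formed after the values were seen.

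**Figure D3:**
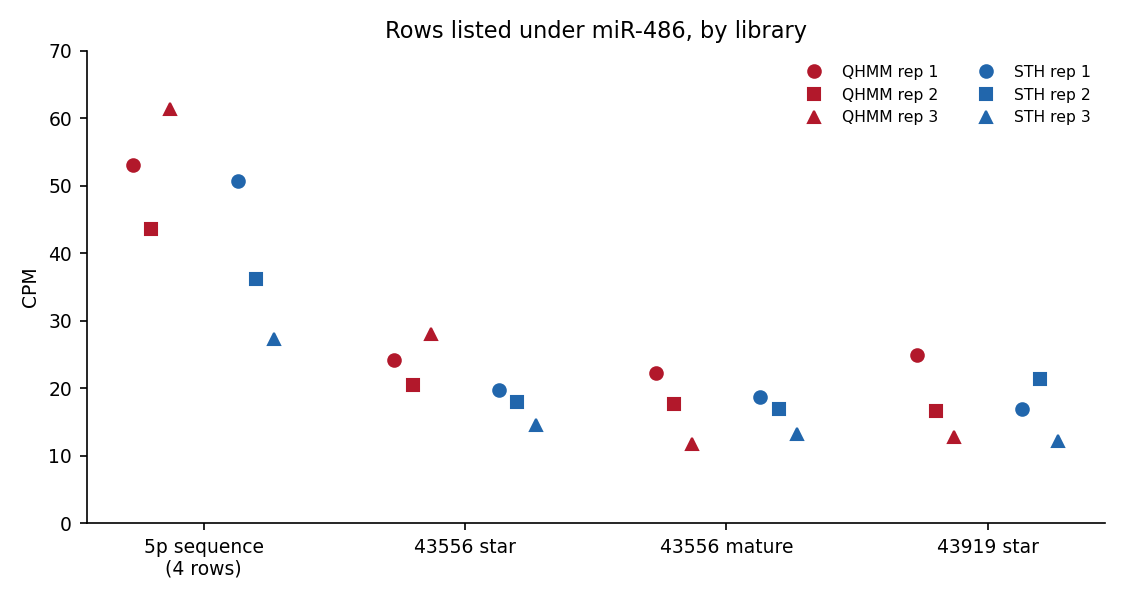
CPM of the rows listed under miR-486 in each library: the sum of 4 rows with the 5p sequence and 3 single rows of predicted loci. QHMM replicate 3 (red triangle) is the highest library in the first 2 groups (61.4 and 28.1 CPM) and among the lowest in the last 2 (11.7 and 12.8 CPM).

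The remaining names were at the limit of detection. miR-451a, the mouse and human name of the miR-451-5p sequence, had 2 counts in the row that stands for it, both in STH libraries, and 2 in its other row, both in QHMM libraries. The mouse name miR-486a-5p and human miR-486-3p had 1 count each, both in QHMM libraries. These rows hold sequences already counted under the rat name or at a predicted locus, or differ from them by little, and their low counts say nothing about the miRNAs.

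Breed differences of the miRNAs were tested in a fit over all 1274 names that passed the filter on low counts, of which 4 were among the 8. edgeR's quasi-likelihood test called 0 of the 4 at an adjusted p under 0.05, where it called 2.2% of all names tested (28), 0.314% as higher in QHMM and 1.88% as lower. At an unadjusted p under 0.05 it gave 1 of the 4, miR-451-5p, beside 13.7% of all names in either direction and 6.04% as higher in QHMM. The breeds did not overlap in CPM for 2 of the 4, both higher in QHMM, beside 17.2% of all names in either direction and 8.48% as higher in QHMM. The median log2 fold change of the 4 was 1.60, and that of all names was 0.031. Of the 4, miR-451-5p and both arms of miR-144 come from the same transcript, so they are not separate observations.

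miR-451-5p averaged 40242 ± 36499 CPM in QHMM and 9672 ± 3456 CPM in STH (SD, n = 3 each), and edgeR gave 2.03 ± 0.73 (log2 fold change of QHMM over STH ± standard error) with an adjusted p of 0.334. DESeq2 gave the same fold change with a standard error of 0.51 and called it, with an adjusted p of 0.0041. When QHMM replicate 3 was left out, the log2 fold change was 0.95 (standard error 0.32) at an adjusted p of 0.230 in edgeR, although the 2 other QHMM libraries still lay above all STH libraries. For miR-144-3p, with 532 ± 691 CPM in QHMM and 87.9 ± 15.9 CPM in STH (SD, n = 3 each), the same fit gave 2.58 ± 1.07 at an adjusted p of 0.379 in edgeR, and it gave 0.55 without QHMM replicate 3 (adjusted p = 0.558). DESeq2 gave no adjusted p for this name.

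miR-144-5p averaged 265 ± 260 CPM in QHMM and 117 ± 19.5 CPM in STH (SD, n = 3 each). Its log2 fold change of 1.17 ± 0.66 (edgeR, adjusted p = 0.485) was 0.013 ± 0.39 without QHMM replicate 3. miR-486 averaged 25.9 ± 4.19 CPM in QHMM and 19.2 ± 6.15 CPM in STH (SD, n = 3 each). Its log2 fold change was 0.43 ± 0.33 (edgeR, adjusted p = 0.616) with all libraries and 0.28 without QHMM replicate 3, 0.21 without STH replicate 3 and 0.65 without STH replicate 1. The approximate 95% interval of the first value, -0.21 to 1.07, includes differences above 2-fold. The breed differences of miR-451-5p and both arms of miR-144 thus moved with QHMM replicate 3, and that of miR-486, small beside its error, moved with single libraries of either breed.

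**Figure D4:**
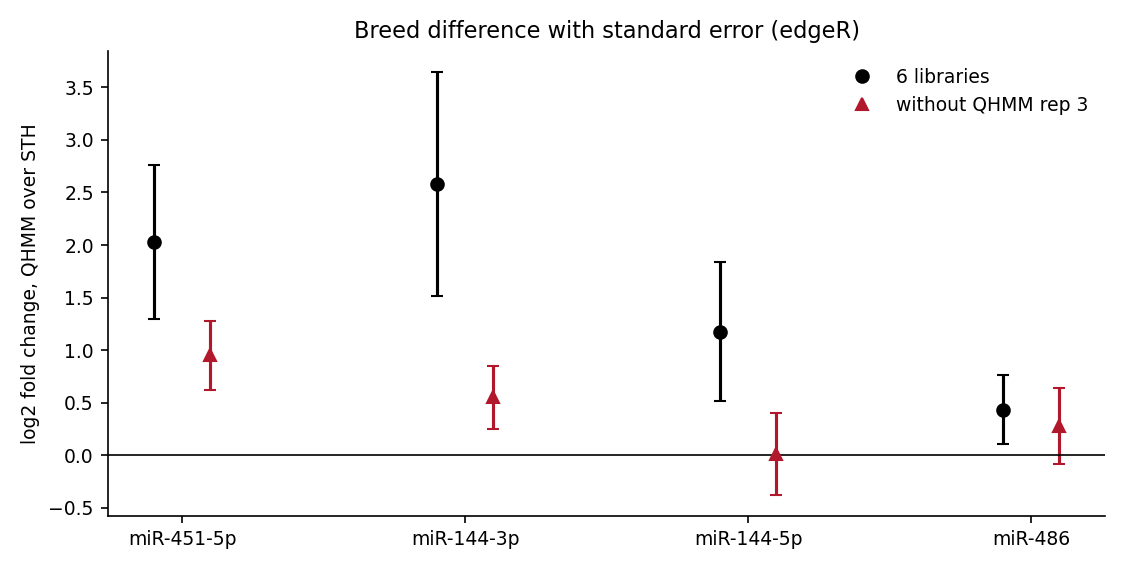
Log2 fold change, QHMM over STH, with its standard error from edgeR, for all 6 libraries (black) and without QHMM replicate 3 (red). Without this library the values of miR-451-5p, miR-144-3p and miR-144-5p drop to 0.95, 0.55 and 0.013, and that of miR-486 is 0.28 in place of 0.43.

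Most other miRNAs known to be abundant in red blood cells showed no gap of this size in QHMM replicate 3, and miR-15b-3p, at a low level, came closest. The list of 18 names (miR-15a, miR-15b, miR-16, miR-25, miR-92a, miR-363 and the miR-183 cluster) summed to 12833, 12966 and 15617 CPM in QHMM replicates 1, 2 and 3, and to 15617, 11186 and 10060 CPM in STH replicates 1, 2 and 3. The sum in QHMM replicate 3 was 1.22-fold above the median of the other 5 libraries and nearly the same as that of STH replicate 1, the library with the least miR-451-5p. miR-16b, the most abundant name of the list, had 12957 CPM in QHMM replicate 3 and 8043 to 13620 CPM in the others. As miR-16b makes up most of the sum, the sum says little about the rarer names. miR-15a-5p and miR-25 lay 1.28-fold above the median of the other 5. miR-15b-3p, the lesser arm of a relative of miR-16, had 3.31, 4.85 and 22.2 CPM in QHMM replicates 1, 2 and 3, against 5.87, 5.18 and 5.80 CPM in STH replicates 1, 2 and 3. Its gap in QHMM replicate 3, 4.28-fold over the median of the other 5, was close to that of miR-144-5p, and it was named after its values were seen. These miRNAs are made in many tissues, muscle included. edgeR called 0 of the 9 names tested, with a median log2 fold change of 0.13. The breeds did not overlap in miR-15a-5p, at 1727 to 1813 CPM in QHMM and 997 to 1371 CPM in STH. Nor did they in miR-15b-5p, where the lowest QHMM value was 34.6 CPM and the highest STH value 34.5 CPM. Both were higher in QHMM, beside 8.48% of all names tested that were apart in this direction.

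White blood cell and platelet miRNAs differed among themselves in that library. Their 15 names summed to 3135 CPM in QHMM replicate 3, and to 3888 and 3335 CPM in the other QHMM libraries and 2407 to 3492 CPM in the STH libraries. Among the 3 most abundant, miR-342-3p and miR-150 of lymphocytes lay 0.887-fold and 0.866-fold against the median of the other 5, and miR-142-3p, made in blood cells of most kinds, lay 2.15-fold above it. The other arm, miR-142-5p, lay 1.68-fold and miR-146b-5p 1.26-fold above it. These 3 names, miR-142-3p, miR-142-5p and miR-146b-5p, were the ones of the 15 in which the breeds did not overlap, all higher in QHMM. All were among the 9 names tested, and 8.48% of all names tested were so. miR-223-3p, of neutrophils and platelets, had 126 CPM in QHMM replicate 3 and 93.1 to 274 CPM in the others. edgeR called 0 of the 9 names tested (median log2 fold change 0.0092), and miR-142-3p, with 501 ± 101 CPM in QHMM and 247 ± 32.8 CPM in STH (SD, n = 3 each), had an adjusted p of 0.0796.

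The vessel list, with miR-126 of endothelium and miR-143 and miR-145 of smooth muscle, was lowest in QHMM replicate 3. Its 9 names summed to 45253 CPM there, and to 57578 and 71996 CPM in the other QHMM libraries and 63518 to 78324 CPM in the STH libraries. miR-126a-3p had 9966 CPM in QHMM replicate 3 and 13792 to 22831 CPM in the others. edgeR called 0 of 7 tested, with a median log2 fold change of -0.29. The muscle fibre list held 518575 CPM in QHMM replicate 3 and 450981 to 547125 CPM in the other 5. As miR-1 and miR-133 make up most of the sum, it says little about the rarer names. QHMM replicate 3 lay 2.87-fold above the median of the other 5 for miR-208b-3p, 2.50-fold for miR-499-5p and 2.17-fold for miR-499-3p. For both arms of miR-499, QHMM replicate 1 was higher still. Against the same median, miR-133 lay at 1.54-fold, miR-1 at 0.894-fold and miR-206-3p at 0.746-fold. The 2 calls of the list, both higher in QHMM, were miR-208b-3p and miR-499-3p of slow fibres (adjusted p = 0.0419 each from edgeR), with a median of 0.16 over the 13 tested. Neither call held without QHMM replicate 3 or without STH replicate 1, where edgeR called 0 names as higher in QHMM. The same was so where each library had to reach 10 counts, and among known names alone. Among the muscle fibre names, the breeds did not overlap in miR-208b-3p, both arms of miR-499 and miR-1-5p, all higher in QHMM. They did not overlap in miR-206-3p and miR-1b-5p either, both lower in QHMM. Of all names tested, 17.2% had breeds that did not overlap, in either direction. The part of blood content in the levels of miR-451 and miR-144 was not tested.

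**Figure D5:**
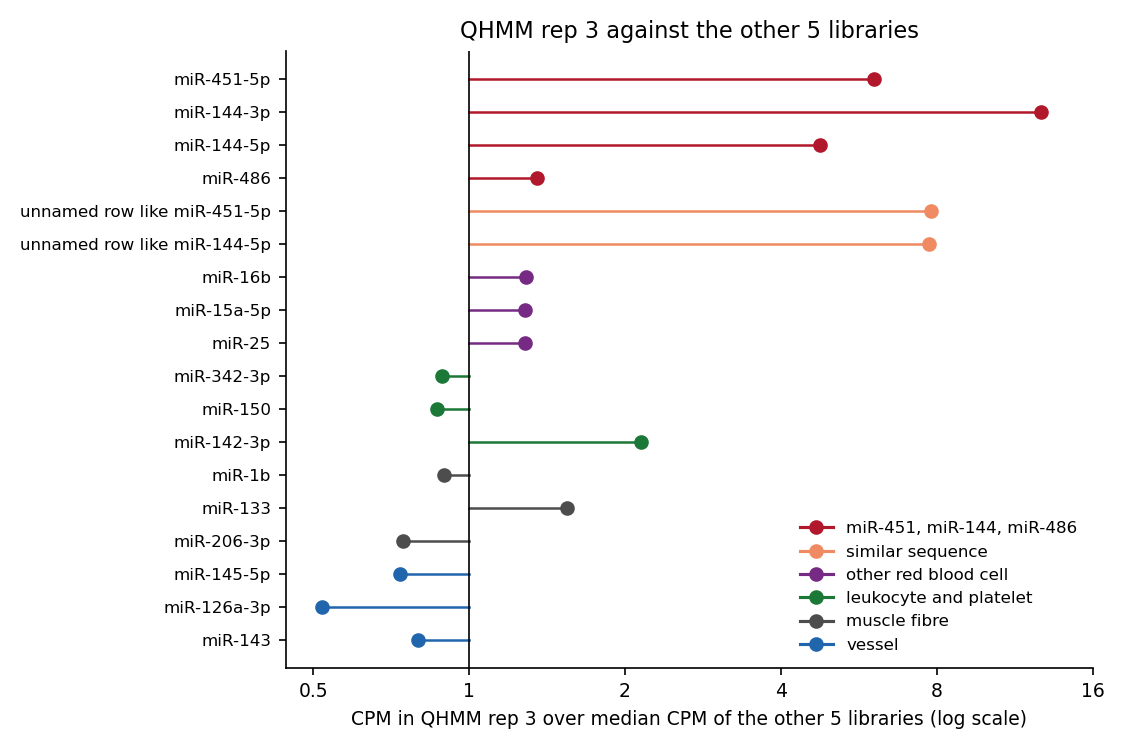
CPM in QHMM replicate 3 over the median CPM of the other 5 libraries (log scale), for miR-451, miR-144 and miR-486, for 2 unnamed rows with similar sequence, and for the 3 most abundant names of each list. miR-144-3p (12.7), both unnamed rows and miR-451-5p (6.06) lie far to the right, and miR-486 (1.36) lies near miR-16b, miR-15a-5p and miR-25.

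The pattern of miR-451-5p over the 6 libraries was set beside that of all 537 names with a mean of at least 10 CPM, on log2(CPM + 1), as a description. Among the 8 names, miR-144-3p had a Pearson r of 0.93 (Spearman's rho 0.89), miR-144-5p 0.85 (rho 0.60) and miR-486 0.63 (rho 0.37). By r, these names ranked 3rd, 11th and 75th, with miR-451-5p itself counted as the 1st. The 5 other names with the highest r were the unnamed predicted row chr7_18904 (r = 0.95, rho 0.89), miR-208b-3p (r = 0.91, rho 0.89), the unnamed row chr24_41628 (r = 0.89, rho 0.49), row chr7_18658 (r = 0.89, rho 0.77) and row chr12_25665 (r = 0.88, rho 0.77). All points share the same 6 libraries, and QHMM replicate 3 was the highest of them for each of these names.

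Of the 537 names, 6 had at least 4 times the median of the other 5 libraries in QHMM replicate 3, and between 2 and 7 names did so in each of the other libraries. The 6 were miR-144-3p, miR-451-5p, miR-144-5p and 3 unnamed predicted rows of 17 or 18 nt, here named after their values were seen. Of these rows, 2 resemble miR-451-5p and miR-144-5p. They are shown because both go with the library that is high in miR-451, with the bases shared with the miRNA in capitals.
chr24_41628: TTACCATTACcTGAGTT
chr1_2298: tgGGATATCTCATATACT
In the first, 16 of 17 nt follow bases 7 to 22 of miR-451-5p with 1 base inserted. In the second, 16 nt follow bases 1 to 17 of miR-144-5p with 1 base missing. In a search of 10968 rows outside the 8 names, for a stretch of 15 nt with at most 1 edit to a strand of miR-451, miR-144 or the miR-486-5p sequence, these were the only 2 rows found.

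Row chr24_41628 had 33.3, 28.0 and 244 CPM in QHMM replicates 1, 2 and 3, against 18.7, 31.3 and 38.3 CPM in STH replicates 1, 2 and 3. Row chr1_2298 had 12.1, 22.8 and 107 CPM in QHMM replicates 1, 2 and 3, against 13.8, 10.5 and 18.0 CPM in STH replicates 1, 2 and 3. Both were thus highest in QHMM replicate 3, with 7.80-fold and 7.72-fold the median of the other 5. Row chr24_41628 amounted to 1.43 to 4.60 counts per 1000 of miR-451-5p over the 6 libraries, whereas row chr1_2298 amounted to 77.4 to 189 per 1000 of miR-144-5p. Whether these rows hold reads of the miRNAs with a base inserted or lost was not tested, and no sheep genome was used here. The remaining name of the 6, row chr7_18818, had 221 CPM in QHMM replicate 3 but also 119 CPM in STH replicate 1, where miR-451-5p was lowest, and its r with miR-451-5p was 0.30.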

How the data were processed

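For each library the authors deposited a raw read count, not normalized, for rows of known sheep, rat, mouse or human miRNAs and of predicted loci. All 6 value columns were mapped to samples. Oar_v3.1 and DESeq are named in the submitters' processing notes. The sources used here do not give the aligner, the caller or the handling of reads that fit several rows. For 450 names with several rows the row with the highest total was taken, and CPM were computed over the total of all names. The comparison of QHMM with STH used edgeR 4.0.16 under R 4.3.3, with TMM factors, the default expression filter and a robust quasi-likelihood fit without covariates. P-values were adjusted over all names tested (Benjamini-Hochberg, threshold 0.05), and standard errors follow from the F statistic. Alternatives were DESeq2 1.42.0, other scaling, other filters, other use of rows, a replicate block and the removal of each library. Replicates of a breed differed far beyond sampling noise (chi-square per degree of freedom of 80.3 or more). Other values were computed in Python 3.11.15 (numpy 2.4.6, pandas 2.3.3, scipy 1.17.1).

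Names and lists were chosen with earlier results of these data known. Named were all 8 names of the rule, the 3 most abundant names of each list, any list name past the threshold, and the 5 names with the highest r to miR-451-5p. The list entry miR-1 was matched to miR-1b after the names were seen, and further names were chosen after their values were seen. The sequence of miR-486 is not shown.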

Additional observations from a re-analysis of the deposited data

How the results depend on the processing

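The log2 fold changes of miR-451-5p, miR-144-3p, miR-144-5p and miR-486 kept a positive sign in 72 of 72 alternative values, and 1 of these passed the threshold: miR-451-5p with DESeq2 (2.03, adjusted p = 0.0041), which made the count of calls among the 8 names 1 in place of 0. For miR-144-3p, DESeq2 gave no adjusted p, so that value could not be set against the threshold. With each library left out the value ran from 0.95 to 2.41 for miR-451-5p, 0.55 to 3.02 for miR-144-3p, 0.013 to 1.56 for miR-144-5p and 0.21 to 0.65 for miR-486, the lowest of the first 3 without QHMM replicate 3, and the count of calls among the 8 names was 0 each time. Over all names, the 28 calls became 64 without a filter, 8 where each library had to reach 10 counts, 49 in DESeq2, 6 among known names alone, and 16 to 35 with each library left out (16 without QHMM replicate 3, 18 without STH replicate 2 and 16 without STH replicate 3). The cause was not tested. With the replicate block the count was 26, and the values were 1.71 for miR-451-5p (adjusted p = 0.190), 1.64 for miR-144-3p, 0.67 for miR-144-5p and 0.46 for miR-486, with no call changed. Deviations of same-numbered libraries correlated by 0.061, 0.239 and 0.119, in each case higher than with other numbers. The labels do not say that libraries of the same number belong together, so the main fit left them unpaired. Whether such libraries share a source of variation was not tested. The mean level of miR-486, 22.5 CPM, was 72.4 CPM with the rows of its name summed and 16.3 CPM over the total of all rows. Summing the 4 rows with its 5p sequence, an alternative chosen after seeing the data, gave a log2 fold change of 0.46 (adjusted p = 0.544). miR-451-3p, miR-451a, miR-486a-5p and miR-486-3p, each with 20 counts or fewer, did not pass the filter on low counts.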

Other observations

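Some names of the red blood cell list had patterns of their own. miR-15b-5p, the other arm of miR-15b-3p, had 37.5 CPM in QHMM replicate 3 and was highest in QHMM replicate 1 with 119 CPM. miR-363-3p, listed for red blood cells, was lowest in this library, with 27.0 CPM in QHMM replicate 3 and 38.8 to 79.5 CPM in the others. miR-182 had 6.15 CPM in STH replicate 1 and at most 0.663 CPM in the other 5 libraries. Of the same cluster, miR-96-5p and miR-183-5p were also highest in STH replicate 1, at 3.55 and 1.78 CPM. Elsewhere they had at most 1.46 and 0.378 CPM. miR-182-5p, at 0.137 CPM in STH replicate 1, was not highest there, and all of these levels are low. These names were chosen after their values were seen, and their differences were not tested among libraries.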
